A study of Mus musculus with 9 samples.

Results

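The genes described here are 6 receptors for chemokines, Ccr1, Ccr2, Cx3cr1, Cxcr3, Cxcr4 and Ackr3, taken by gene symbol from the 40879 symbols counted in each library. All 6 were found and all 6 passed the filter on low counts, which kept 13251 genes in all. Their level was compared between 3 groups of 3 libraries, made from type 2 conventional dendritic cells (cDC2s) sorted from mouse bone marrow cultures. Cells of every group grew for 9 days with 100 ng/ml human Flt3L, the growth factor that drives dendritic cell development. The WT group came from wild-type marrow, and the WT+IFNa group from wild-type marrow given interferon alpha. The A20iKO group carried the genotype A20fl/fl x CD11ccre, in which Cre recombinase driven by the CD11c promoter acts on a floxed gene for A20, an enzyme that restrains NF-kB signalling. A protocol entry that names IFNa on day 5 is attached to all 9 libraries, while only the WT+IFNa libraries carry IFNa in their title and treatment label. The series describes 3 mice per group, but no label ties a library to a mouse, so p-values measure the spread between libraries, which may be technical. No label states which part of the floxed gene is removed.

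Chemokine receptors span the cell membrane and pass the signal of a bound chemokine to inhibitory G proteins, which steer cell movement along a chemokine gradient. Ccr1, Ccr2, Cx3cr1 and Cxcr3 answer ligands made in inflamed tissue, and Ccr2 and Cx3cr1 also mark monocytes and dendritic cells on their way into tissue. Cxcr4 binds Cxcl12 and holds developing blood cells in the bone marrow, and Ackr3 is an atypical receptor that binds the same ligand and removes it without G protein signalling.

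The libraries held 6900598 to 10552756 counts each. Levels are CPM, counts scaled to library depth with TMM factors of 0.897 to 1.09, and errors are the SD of 3 libraries. Reads were made from the 3' end of transcripts, so a level does not scale with transcript length. Levels of different genes still depend on the annotation and the treatment of multimapping reads, which are not known, so an order between genes is approximate. The 16 cDC2 markers listed were all detected in each group, at summed levels of 18797 to 23406 CPM in WT, 13261 to 16260 in WT+IFNa and 8386 to 9957 in A20iKO. Most of this sum came from H2-Ab1, Cd74 and Cst3, at means of 8489, 5912 and 4958 CPM in WT. They stood at 5383, 4081 and 3377 CPM in WT+IFNa and at 3801, 2928 and 1115 in A20iKO. Sirpa, another of the 16, went the other way, with means of 170, 197 and 455 CPM in WT, WT+IFNa and A20iKO. Of these 16 markers, 10 fell and 3 rose in A20iKO against WT, and 4 fell and none rose in WT+IFNa, and their part in the receptor levels below was not tested. Tnfaip3, the gene of A20, was read in all A20iKO libraries at 37.3 to 53.9 CPM against 4.26 to 22.7 in WT. With the removed part unknown, a 3' read of Tnfaip3 checks nothing about the deletion. Stromal transcripts set single libraries apart, with 15 stromal markers at 4030 to 4448 CPM in WT replicate 2, WT+IFNa replicate 3 and A20iKO replicate 1, against 423 to 2202 CPM in the others. In bulk RNA, fewer cells of a type and less RNA per cell cannot be told apart, and this holds for every level below.

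Ccr1 and Cxcr3 were lower in A20iKO than in WT, and Cx3cr1 and Cxcr4 were higher. The sequence upstream of the start site is shown for these 2 pairs, since the members of each moved together. Each line is 250 bases, 5' to 3', ending at the base before the annotated start, as RefSeq gives it for GRCm38.p6, an older build than the GRCm39 of the counts. The windows are chr9:123968693-123968942 for Ccr1, chrX:101734148-101734397 for Cxcr3, chr9:120068297-120068546 for Cx3cr1 and chr1:128592300-128592549 for Cxcr4, all on the minus strand. Capitals mark matches to any of 4 motifs searched on both strands.
Ccr1: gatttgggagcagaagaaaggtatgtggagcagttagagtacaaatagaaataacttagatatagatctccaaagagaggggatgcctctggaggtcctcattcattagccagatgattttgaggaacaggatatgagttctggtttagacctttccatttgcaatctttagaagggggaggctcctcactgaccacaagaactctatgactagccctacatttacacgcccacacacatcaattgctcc
Cxcr3: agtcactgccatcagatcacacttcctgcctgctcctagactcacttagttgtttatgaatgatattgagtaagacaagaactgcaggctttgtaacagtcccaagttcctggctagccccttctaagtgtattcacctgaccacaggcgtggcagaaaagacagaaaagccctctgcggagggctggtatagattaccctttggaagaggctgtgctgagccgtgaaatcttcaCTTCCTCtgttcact
Cx3cr1: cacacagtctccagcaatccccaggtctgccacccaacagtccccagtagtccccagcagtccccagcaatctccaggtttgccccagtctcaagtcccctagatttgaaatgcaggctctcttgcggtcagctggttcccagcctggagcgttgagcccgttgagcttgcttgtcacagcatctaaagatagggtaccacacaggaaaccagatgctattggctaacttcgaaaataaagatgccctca
Cxcr4: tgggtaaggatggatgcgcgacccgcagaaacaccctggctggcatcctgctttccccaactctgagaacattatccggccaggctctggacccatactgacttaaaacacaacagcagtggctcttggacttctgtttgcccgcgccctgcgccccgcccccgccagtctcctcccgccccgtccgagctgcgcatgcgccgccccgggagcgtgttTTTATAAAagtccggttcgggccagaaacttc

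The motifs were the core of the interferon-stimulated response element, GAAANNGAA, a form of the NF-kB site, GGGANTTCC, the core bound by the myeloid factor PU.1, GAGGAAG, and the TATA box, TATAAA. Cxcr3 held GAGGAAG once, on the other strand at -15 to -9 from the start site, as did 10.6% of 32851 windows of this length. Cxcr4 held TATAAA on both strands at -32 to -25, where the 2 matches overlap each other, and 12.4% of all windows hold this motif. None of the 4 motifs was found in the Ccr1 or Cx3cr1 window. GAAANNGAA was in none of the 4 windows shown but lay in that of Ccr2 at -86 to -78, against 7.13% of all windows. GGGANTTCC was found near none of the 6 genes, and in 1.43% of windows. The Cxcr4 window also held 19 CG dinucleotides, more than 80.3% of all windows, where Ccr1 held 1, Cxcr3 3 and Cx3cr1 4. These matches describe letters in a window, and no factor's binding was measured.

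In WT cells, Ccr2 was the highest of the 6 at 772 ± 103 CPM (n = 3), above 99.0% of the genes kept. Cx3cr1 followed at 199 ± 31.4 CPM and Ccr1 at 137 ± 7.54 CPM, and each of these 3 stood apart from the next in all libraries. Cxcr4 at 27.7 ± 12.7 CPM and Cxcr3 at 22.9 ± 13.6 CPM overlapped, with Cxcr4 the higher of the pair in 2 of 3 WT libraries. Ackr3 came last at 1.31 ± 1.23 CPM. In WT+IFNa the order was the same and no neighbours overlapped. In A20iKO, Cxcr4 stood above Ccr1 in all libraries and ranked behind Ccr2 and Cx3cr1, while Cxcr3 and Ackr3 overlapped at the bottom.

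**Figure D1:**
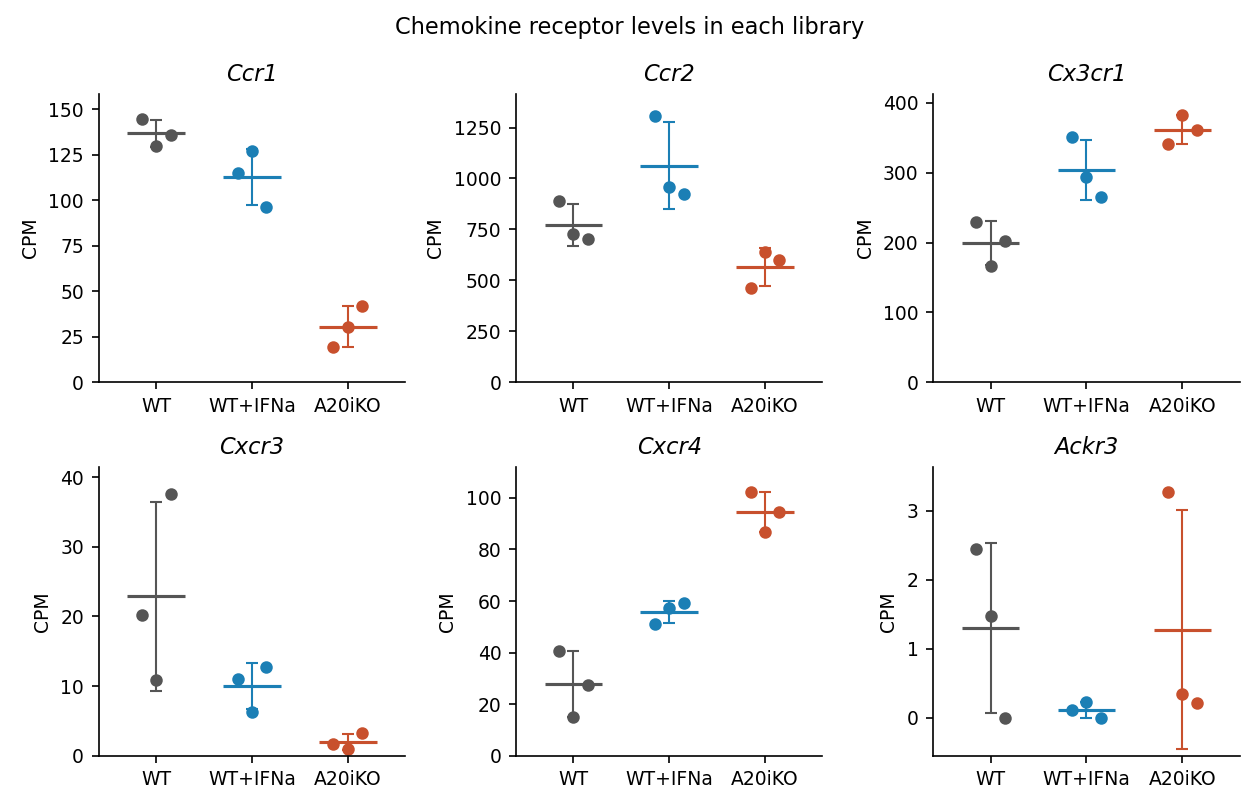
Level of each receptor in CPM (linear axis) in the 9 libraries, by group; points are libraries, the horizontal line is the mean and the bar the SD of 3 libraries. Ccr1 and Cxcr3 in A20iKO lie below every WT library, Cx3cr1 and Cxcr4 lie above every WT library, and Ackr3 reaches 3.27 CPM at most with overlapping groups.

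Against WT, 2 of the 6 receptors rose and 2 fell in A20iKO (edgeR quasi-likelihood test, Benjamini-Hochberg adjusted p over all genes, threshold 0.05). Over all genes, 5.77% were called higher and 4.91% lower in this comparison. The median log2 fold change of the 6 was -0.24, beside -0.01 over all genes tested. Against WT, none of the 6 passed in WT+IFNa by edgeR, where 2.40% of genes were called higher and 0.702% lower, with medians of 0.09 for the 6 and -0.02 for all genes. At an unadjusted p, 3 of them were below 0.05, all higher, and DESeq2 called 2 while limma-voom called none. Between A20iKO and WT+IFNa, 3 of the 6 were lower in A20iKO and none higher, where 3.41% of genes were called lower and 2.05% higher, with medians of -0.33 and 0.02. At an unadjusted p under 0.05, 1 receptor was higher, Cxcr4, and neither DESeq2 nor limma-voom called any higher.

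**Figure D2:**
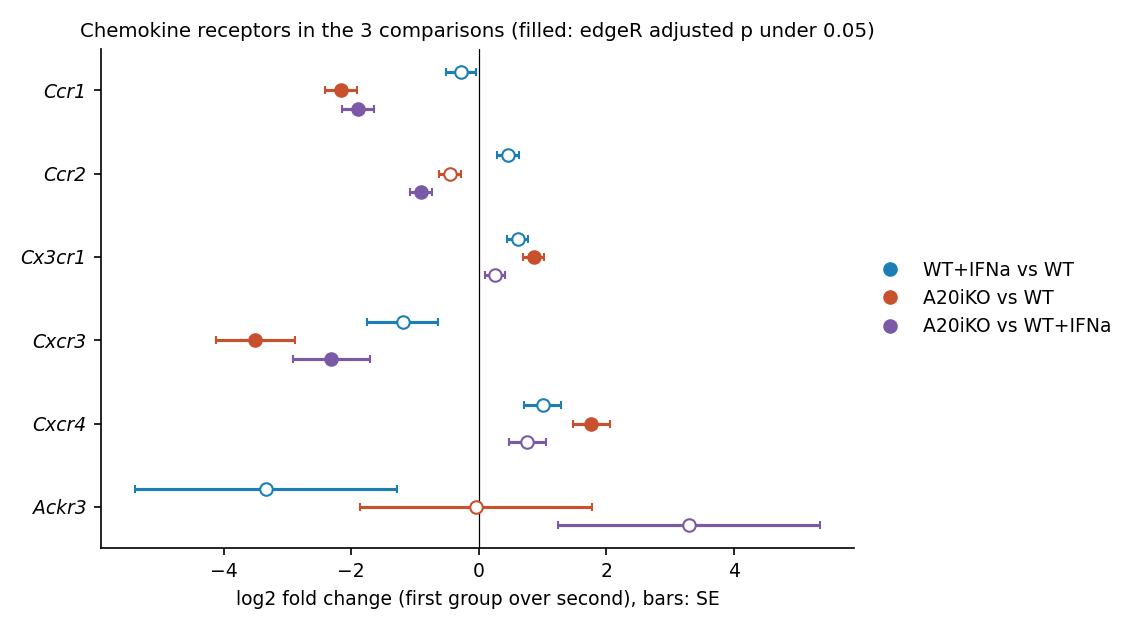
Log2 fold change of each receptor in the 3 comparisons (horizontal axis), first-named group over second, with SE; filled points have an edgeR adjusted p under 0.05. For Ccr1 and Cxcr3 both A20iKO comparisons are filled and lie left of 0, Cx3cr1 and Cxcr4 are filled on the right only against WT, and the SE of Ackr3 reaches 2.05.

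Ccr1, a receptor for Ccl3, Ccl5, Ccl6 and Ccl9, was the member of smallest p in A20iKO. It stood at 145, 130 and 136 CPM in the WT libraries, 115, 127 and 96.4 in WT+IFNa, and 19.3, 30.2 and 41.8 in A20iKO. The 3 A20iKO libraries lay far below the other 6, and each WT+IFNa library lay below each WT library. Ccr1 fell 4.49-fold in A20iKO against WT, a log2 fold change of -2.17 (SE 0.251, adjusted p = 9.36e-05). Against WT+IFNa it also fell, with a log2 fold change of -1.89 (SE 0.249, adjusted p = 0.000564). With IFNa the log2 fold change over WT was -0.28 (SE 0.239, adjusted p = 0.744). The mean level of Ccr1 was above that of 90.3% of the genes kept in WT and of 61.8% in A20iKO. Reads of Ccr1 could be shared with its close copy Ccr1l1, which held 0 to 16 counts per library.

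Ccr2, the receptor for Ccl2, Ccl7 and Ccl12 that brings monocytes out of the marrow, held 889, 725 and 701 CPM in WT. The WT+IFNa libraries had 1307, 957 and 925 CPM and the A20iKO libraries 463, 638 and 597. No groups overlapped, with WT+IFNa highest and A20iKO lowest. The fall from WT+IFNa to A20iKO passed the test, with a log2 fold change of -0.91 (SE 0.172, adjusted p = 0.00678), or 1.88-fold. Neither group differed from WT past the threshold by edgeR, with log2 fold changes of 0.46 for WT+IFNa (SE 0.17, adjusted p = 0.235) and -0.45 for A20iKO (SE 0.171, adjusted p = 0.13). By DESeq2 the A20iKO difference from WT lay at the threshold (adjusted p = 0.0498).

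Cx3cr1, the receptor for the membrane-bound chemokine Cx3cl1, was read at 229, 166 and 203 CPM in WT. It stood at 351, 294 and 266 CPM in WT+IFNa and at 341, 383 and 361 CPM in A20iKO. All libraries of both groups lay above the WT libraries, and the groups WT+IFNa and A20iKO overlapped. Cx3cr1 rose 1.82-fold in A20iKO over WT, by 0.86 on the log2 scale (SE 0.161, adjusted p = 0.00347). With IFNa the log2 fold change was 0.61 (SE 0.16) and the adjusted p of 0.0661 missed the threshold, which it passed by DESeq2 (0.00441) and without the low-count filter (edgeR adjusted p = 0.0402). A20iKO and WT+IFNa differed by 0.25 on the log2 scale (SE 0.16, adjusted p = 0.511).

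The ratio of Ccr2 to Cx3cr1 counts within a library does not depend on scaling. It was 3.88, 4.36 and 3.46 in WT, 3.73, 3.25 and 3.48 in WT+IFNa, and 1.36, 1.67 and 1.66 in A20iKO. Every A20iKO library thus held fewer Ccr2 reads per Cx3cr1 read than any other library. The 2-sided exact permutation test gave p = 0.1 for A20iKO against WT and against WT+IFNa, the smallest that 3 libraries against 3 can give, and p = 0.3 for WT+IFNa against WT. Markers of monocytes and macrophages, cells that use both receptors, were at summed levels of 1422 to 1838 CPM in WT, 3446 to 3955 in WT+IFNa and 4340 to 4392 in A20iKO. All 20 markers had counts in each group. Of the 19 tested, 9 rose and 2 fell in A20iKO against WT, and 6 rose and 2 fell in WT+IFNa. Plac8 and Ly6c2, markers of Ly6C-positive monocytes, had the smallest p in both. Their rise does not count monocytes, since more monocytes and more RNA of these genes per cell cannot be told apart. Plac8 stood at 133 ± 25.1 CPM in WT, 1348 ± 175 in WT+IFNa and 1130 ± 141 in A20iKO. Ly6c2 rose from 26 ± 10.6 CPM in WT to 678 ± 103 in WT+IFNa (edgeR adjusted p = 4.74e-07) and 739 ± 115 in A20iKO (adjusted p = 3.68e-07), and did not pass between these 2 groups (adjusted p = 0.911). Plac8 and Ly6c2 made up most of the summed rise with IFNa, so the sum does not follow the list as a whole. Lyz2, another of the markers, stood at 364 ± 48.4 CPM in WT, 129 ± 17.6 in WT+IFNa and 697 ± 87.9 in A20iKO. The part of monocytes and macrophages in the levels of Ccr2 and Cx3cr1 was not tested.

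Cxcr3, the receptor for the interferon-induced chemokines Cxcl9 and Cxcl10, varied more within WT than the other receptors apart from Ackr3, with 206, 81 and 371 counts in its libraries. This gave 20.2, 10.8 and 37.6 CPM in WT, 10.99, 6.25 and 12.8 in WT+IFNa, and 1.70, 1.02 and 3.26 CPM in A20iKO, from 9 to 31 counts. The A20iKO libraries lay below all others, while WT and WT+IFNa overlapped. Cxcr3 fell 11.4-fold in A20iKO against WT, a log2 fold change of -3.50 (SE 0.622, adjusted p = 0.00237) and the largest fold of the receptors called in the 3 comparisons. With IFNa the log2 fold change over WT was -1.20 (SE 0.562, adjusted p = 0.405). Against WT+IFNa, A20iKO was lower by a log2 fold change of -2.31 (SE 0.6, adjusted p = 0.0414). This call ended without WT replicate 1 or 3, any WT+IFNa replicate, or A20iKO replicate 1 or 2, where the edgeR adjusted p ran from 0.05003 to 0.166.

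Plasmacytoid dendritic cells and T and NK cells also carry Cxcr3. Of 11 plasmacytoid markers tested, 7 rose and 1 fell in A20iKO against WT, and 3 rose and none fell in WT+IFNa against WT. The 12 summed to 822 to 965 CPM in WT, 1177 to 1325 in WT+IFNa and 1136 to 1463 in A20iKO. Siglech, a surface marker of plasmacytoid cells, was the one that fell in A20iKO, from 241 ± 29.5 in WT to 62.8 ± 13.6 CPM. The 12 T and NK markers summed to 0.784 to 5.47 CPM in WT, 5.99 to 10.2 in WT+IFNa and 18.9 to 26.7 in A20iKO. Both markers of this list that were tested, Cd4 and Tbx21, had higher means in A20iKO than in WT and did not pass (edgeR adjusted p = 0.0672 and 0.383). Of the markers with too few counts to test, Nkg7 held 1 count in WT and 60 in A20iKO, Cd3d 1 and 34, and Lck 0 and 22. Ncr1, Klrb1c and Eomes were at 0 in both WT and A20iKO, Cd3e was at 0 in A20iKO alone of the 3 groups, and Cd8b1 and Lck were at 0 in WT. Markers of cDC1s went the other way. The 10 cDC1 markers summed to 1712 to 2001 CPM in WT, 1360 to 1529 in WT+IFNa and 785 to 980 in A20iKO. Of these, 5 fell and none rose in A20iKO against WT, and 2 fell and none rose in WT+IFNa against WT. The part of any of these cell types in the Cxcr3 level was not tested.

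Cxcr4, the marrow retention receptor, was read at 40.6, 15.1 and 27.6 CPM in WT, 51.0, 57.4 and 59.2 CPM in WT+IFNa and 102, 86.8 and 94.6 CPM in A20iKO. The 3 groups did not overlap, with WT lowest and A20iKO highest. Cxcr4 rose 3.40-fold in A20iKO over WT, by 1.77 on the log2 scale (SE 0.294, adjusted p = 0.00152). With IFNa it stood 2.01-fold over WT, a log2 fold change of 1.01 (SE 0.29) that did not pass by edgeR (adjusted p = 0.0991). It passed without WT replicate 1, the WT library of highest Cxcr4 (log2 fold change 1.38, edgeR adjusted p = 0.0154), by DESeq2 (0.0257) and without the low-count filter (edgeR adjusted p = 0.00531). Between A20iKO and WT+IFNa the log2 fold change was 0.76 (SE 0.286, adjusted p = 0.178), and it passed without WT replicate 2 (edgeR adjusted p = 0.0419) and in a fit of only these 2 groups (0.021). Progenitors and B lineage cells carry Cxcr4. The 10 progenitor markers summed to 371 to 397 CPM in WT, 238 to 294 in WT+IFNa and 448 to 547 in A20iKO, with 4 of 8 tested higher and 1 lower in A20iKO against WT. Most of this sum in WT and WT+IFNa was Flt3, which is also among the 16 cDC2 markers. Flt3 stood at 293 ± 35.7 CPM in WT, 165 ± 26.4 in WT+IFNa and 163 ± 37.3 in A20iKO, so the sum does not follow the other progenitor markers. The 9 B lineage markers in the files summed to 10.3 to 31.2 CPM in WT, 6.31 to 20.3 in WT+IFNa and 34.7 to 61.4 in A20iKO. Of the 3 tested, Pax5 rose in A20iKO against WT, from 0.578 ± 1.00 to 16.8 ± 4.14 CPM (edgeR adjusted p = 0.046), a call that ended by DESeq2 (0.0811) and without WT replicate 1 or 3, WT+IFNa replicate 2 or any A20iKO replicate (edgeR adjusted p of 0.0647 to 0.132). Cd79b stood at 4.197 ± 2.50 and 15.7 ± 1.65 CPM (adjusted p = 0.0896). Cd79a was at 0 in every group and Igll1 in WT and WT+IFNa. The 15 mature dendritic cell markers summed to 405 to 462 CPM in WT, 957 to 1067 in WT+IFNa and 2339 to 2458 in A20iKO. Of the 14 tested against WT, 8 rose in WT+IFNa and 10 in A20iKO, and none fell in either. The part of any of these cells in the Cxcr4 level was not tested.

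Ackr3 was close to the limit of counting. The libraries held 25, 11 and 0 counts in WT, 1, 2 and 0 in WT+IFNa, and 25, 3 and 2 in A20iKO, or 0 to 3.27 CPM. Where the count was 0, a level of up to 0.304 CPM in WT replicate 3 and 0.445 CPM in WT+IFNa replicate 3 is allowed by 3 counts, a limit that covers counting error only. The groups overlapped, and none of the 3 comparisons passed (adjusted p of 0.994, 0.575 and 0.502 for A20iKO against WT, WT+IFNa against WT and A20iKO against WT+IFNa). Over the group, WT held 10.7 times the level of WT+IFNa (95% interval 3.38 to 54.3, counting error only), resting on 3 counts in WT+IFNa. The A20iKO library with 25 counts also had the highest stromal marker sum of its group, 4133 CPM, but the WT library with 25 counts had the lowest of its group, 709 CPM. Cxcl12, the ligand of Ackr3 and Cxcr4 and a product of stromal cells, was highest in that same A20iKO library with 61 counts. The part of stromal cells in the Ackr3 level was not tested.

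The summed level of the 6 receptors was 1049 to 1326 CPM in WT, 1359 to 1835 in WT+IFNa and 930 to 1139 in A20iKO, so WT and A20iKO overlapped in the sum while its make-up differed. Ccr2 gave 66.5% ± 2.88 of the counts of the 6 in WT, 68.5% ± 2.47 in WT+IFNa and 53.4% ± 3.25 in A20iKO (n = 3 each). Cx3cr1 gave 17.2% ± 1.24, 19.7% ± 0.654 and 34.4% ± 2.01 in the same order. For Ccr1 the shares were 11.9% ± 0.822, 7.39% ± 1.29 and 2.84% ± 0.881, and for Cxcr4 they were 2.33% ± 0.823, 3.70% ± 0.822 and 9.07% ± 1.74. Cxcr3 took 1.99% ± 1.25 in WT and 0.190% ± 0.104 in A20iKO. Shares of a whole are tied to each other, so a higher share of 1 receptor lowers those of the rest.

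**Figure D3:**
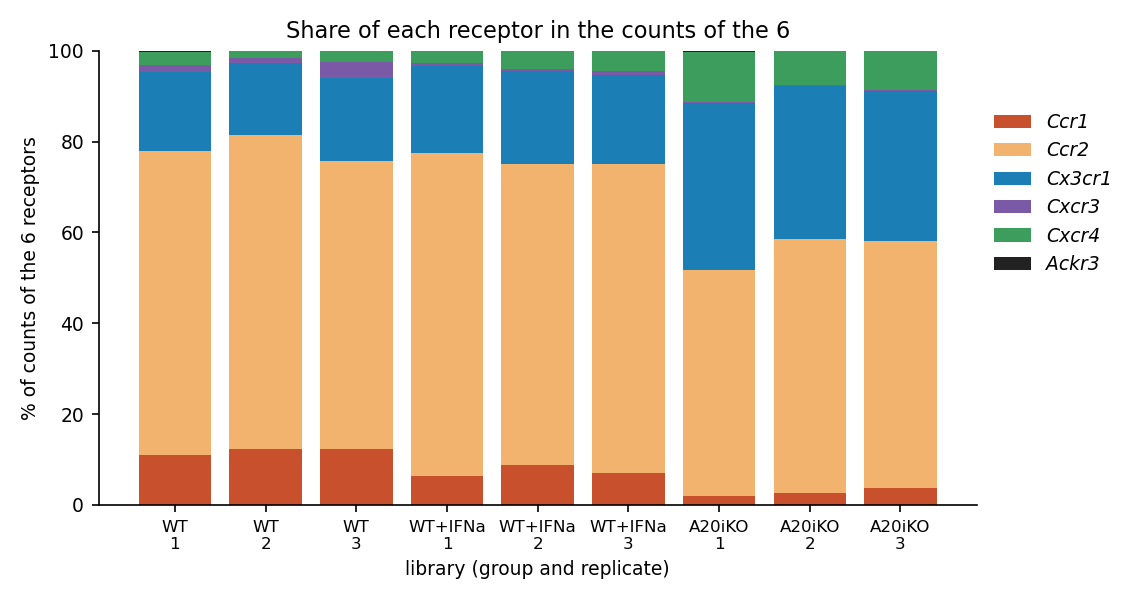
Share of each receptor in the summed counts of the 6 (vertical axis, percent), 1 bar per library. Ccr2 holds 49.7% to 56.0% in the A20iKO libraries and 63.4% to 71.2% in the others, and the Cx3cr1 and Cxcr4 shares are larger in each A20iKO library than in any other.

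The 6 receptors held most reads of the chemokine receptor family. Of the counts of 25 receptor genes, they took 91.0% ± 0.564 in WT, 88.2% ± 1.06 in WT+IFNa and 75.9% ± 2.57 in A20iKO. Ccr7, the lymph node homing receptor of mature dendritic cells, took 0.736% ± 0.395, 5.93% ± 1.31 and 12.5% ± 1.37. Per Ccr7 read, the libraries held 159, 53.8 and 87.5 Ccr2 reads in WT, 12.0, 7.80 and 11.8 in WT+IFNa, and 2.98, 3.95 and 2.88 in A20iKO. The 3 groups did not overlap in this ratio, and the 2-sided exact permutation test gave its smallest p of 0.1 in each comparison.

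Of 9 other receptors tested, 5 rose in A20iKO against WT and 4 did not pass by edgeR. By DESeq2, Xcr1, a cDC1 receptor at 8.62 CPM in WT and 1.203 in A20iKO, was also called lower (adjusted p = 0.0288, against 0.125 by edgeR). The 5 were Ccr7, Ccr6, the Ccl20 receptor, Ccrl2, the chemerin receptor Cmklr1 and Ackr1, an atypical receptor that binds many chemokines. Ackr1 held 3 counts in all WT libraries and 427 in A20iKO, a ratio of 151 (95% interval 51.3 to 735, counting error only). Cmklr1 stood at 0.176 ± 0.103 CPM in WT, 1.55 ± 1.24 in WT+IFNa and 34.2 ± 10.2 in A20iKO. Ccr6 stood at 3.02 ± 3.46 CPM in WT and 33.6 ± 4.95 in A20iKO (edgeR adjusted p = 0.0271), a call that ended without WT replicate 1 or A20iKO replicate 2 or 3 (edgeR adjusted p = 0.0771, 0.0868 and 0.0639). With IFNa, Ccr7 was the only 1 of the 9 that passed over WT by edgeR, from 9.03 ± 4.04 to 103 ± 22.8 CPM (edgeR adjusted p = 1.16e-05). At an unadjusted p under 0.05, 4 were higher with IFNa, and DESeq2 called 3 higher, adding Cmklr1 and Ccrl2 (adjusted p = 0.0175 and 0.0428). Over the 9, log2 fold changes had a median of 1.73 in WT+IFNa and 3.45 in A20iKO.

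Ligand transcripts were counted in the same libraries. Of 15 ligands of the 6 receptors, 10 were tested, with 4 higher and none lower in A20iKO against WT and 3 higher and none lower in WT+IFNa. At an unadjusted p under 0.05, none was lower in A20iKO and 1 in WT+IFNa, and neither DESeq2 nor limma-voom called any lower in either comparison. With IFNa, DESeq2 called 4 ligands higher and limma-voom 2, and in A20iKO each called 4 higher. Ccl5, a ligand of Ccr1, rose from 46.3 ± 7.84 CPM in WT to 238 ± 32.2 in WT+IFNa and 218 ± 38 in A20iKO (edgeR adjusted p = 7.92e-06 and 1.04e-05). Ccl6, another Ccr1 ligand, rose with IFNa from 57.8 ± 9.64 to 182 ± 4.72 CPM (edgeR adjusted p = 7.73e-05) and stood at 80.7 ± 5.82 in A20iKO (adjusted p = 0.101). Ccl3 and Ccl9 passed in neither. The Ccr2 ligands Ccl2, Ccl7 and Ccl12, and Ccl8 of the same list, reached 4.21 CPM at most, the Ccl2 level of A20iKO replicate 3. Of these, only Ccl2 was kept for testing and did not pass.

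Cx3cl1, the ligand of Cx3cr1, stood at 1.56 ± 1.46 CPM in WT, 10.5 ± 2.49 in WT+IFNa and 15.5 ± 4.2 in A20iKO. It rose in A20iKO (edgeR adjusted p = 0.00696) and with IFNa (adjusted p = 0.0462), a call that ended in the fits without each of the 9 libraries other than WT replicate 2, where the edgeR adjusted p ran from 0.0696 to 0.156. Cxcl10, a ligand of Cxcr3, held 8, 0 and 0 counts in WT, 17, 116 and 28 in WT+IFNa and 168, 117 and 129 in A20iKO. It rose in A20iKO (edgeR adjusted p = 0.00616) and did not pass with IFNa (adjusted p = 0.0545). Cxcl9 had no count in WT or WT+IFNa and held 19, 38 and 2 counts in the A20iKO libraries, too few to be kept for testing. Its 59 counts over the A20iKO group were at least 20.9-fold higher than WT when set against 3 counts. This fold rests mostly on A20iKO replicates 1 and 2. Cxcl10 did not pass between A20iKO and WT+IFNa (adjusted p = 0.582). Mif, a cytokine that can bind Cxcr4, rose in A20iKO from 88.7 ± 7.37 to 210 ± 22.4 CPM (edgeR adjusted p = 0.000275).

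**Figure D4:**
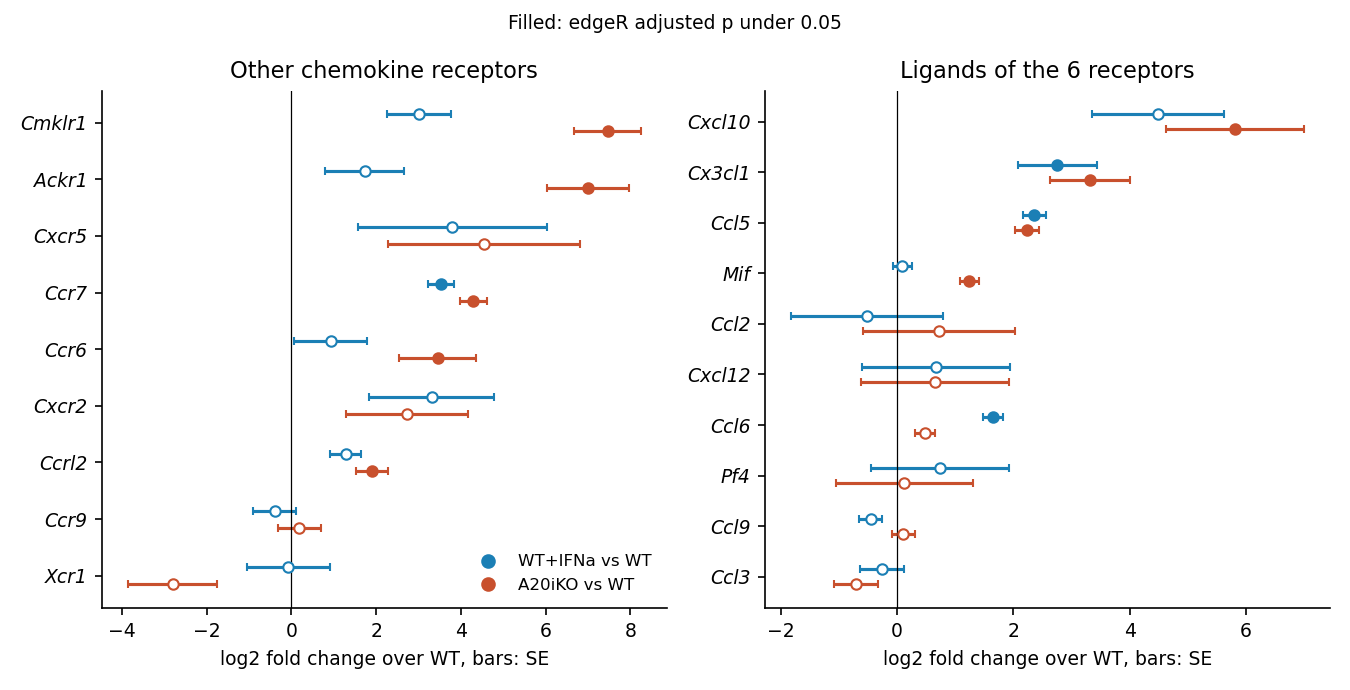
Log2 fold change over WT (horizontal axes, with SE) of 9 other chemokine receptors and of the ligands of the 6 receptors that were kept for testing, in WT+IFNa and A20iKO; both comparisons use the same WT libraries. Filled points have an edgeR adjusted p under 0.05: 5 receptors in A20iKO, Ccr7 alone in WT+IFNa, and among ligands 4 in A20iKO and 3 in WT+IFNa, all on the right.

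Genes that carry the receptor signal or end it were listed as well, 34 in all, of which 33 were tested. In A20iKO against WT, 6 fell and none rose, with a median log2 fold change of -0.21. At an unadjusted p under 0.05, 3 were higher, and DESeq2 and limma-voom called none higher. Plcb2, a phospholipase activated by chemokine receptors, fell from 276 ± 35.9 CPM in WT to 70.6 ± 10.4 (edgeR adjusted p = 2.75e-05). Rgs2 and Rgs10, which switch off G protein signals, fell from 1436 ± 338 to 687 ± 103 CPM and from 140 ± 22.5 to 73.3 ± 8.52 CPM (edgeR adjusted p = 0.00124 and 0.00492). Arrb1, an arrestin that uncouples and internalizes receptors, fell from 107 ± 7.74 to 44.8 ± 10.1 CPM (edgeR adjusted p = 0.00128), while its relative Arrb2 stood at 205 ± 7.94 and 221 ± 22.2 CPM. None of the 33 passed in WT+IFNa against WT by edgeR, with 3 at an unadjusted p under 0.05, and DESeq2 called 1 and limma-voom none.

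For each receptor the genes of most similar pattern over the 9 libraries were taken, by the root mean square difference of log2 CPM after centring each gene, among 8144 other genes of at least 10 CPM (8145 for Ackr3, which lies under that level itself). Closest to Ccr1 were Tnfsf9, a member of the TNF family, at 0.218, the phospholipase gene Plcb2 at 0.238, and Cst3, the protease inhibitor cystatin C, at 0.244. For Ccr2 they were Gpank1 (0.107), Morc2a (0.11) and Taok3 (0.117), and for Cx3cr1 the condensin subunit gene Ncapd2 (0.117), Selenoh (0.138) and the chaperonin gene Cct7 (0.14). Closest to Cxcr4 were the purine synthesis gene Pfas (0.175), the TNF receptor gene Tnfrsf1b (0.245) and the mitotic kinase gene Plk1 (0.251). For Cxcr3 the distances were wider, with Mctp1 at 0.539, Dpep2 at 0.543 and Naaa, a cDC1 marker, at 0.55. No gene came near Ackr3, whose closest, Wdr45, was at 0.951.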

How the data were processed

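Per the labels' protocols, total RNA of sorted cells was made into QuantSeq 3' FWD libraries. The authors deposited raw counts, as whole numbers by symbol, in 1 file per library. Per the submitters' processing notes, reads were handled with featureCounts 2.0.6, STAR 2.7.10b, Bowtie2 and fastp 0.23.1, with GRCm39. No source used here gives their roles, the annotation, the strand setting or the treatment of multimapping reads, so counts of close paralogs and antisense genes are uncertain.

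Groups and replicate numbers came from the titles. The filterByExpr filter of edgeR, at a minimum count of 10 and total of 15, left 13251 genes with 99.8% of counts. All 9 libraries entered 1 quasi-likelihood fit (edgeR 4.0.16, R 4.3.3) with TMM factors, 6 residual degrees of freedom and Benjamini-Hochberg adjustment over all genes kept. The SE was derived from the F statistic. Each library counted as 1 replicate. Library pairs within a group differed beyond sampling noise (chi-square per degree of freedom at least 14.4), which separate preparations from 1 mouse could also give. The scripts were tested on simulated data. Alternatives were other scalings, DESeq2 1.42.0, limma-voom 3.58.1, no filter, a replicate block, 2 groups at a time and libraries left out.

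The members, gene lists, motifs and alternatives were chosen with earlier results of these data known. The text names the 6 members, any receptor or ligand listed, up to 4 genes of smallest p per other list and the 3 genes of closest pattern, leaving out predicted, Y-linked and antigen receptor genes. Cd3d, Cd3e, Cd8b1, Lck, Nkg7, Ncr1, Klrb1c, Eomes, Cd79a, Igll1, Cd74 and Sirpa were named after their values were seen. Lists of cDC1, mature dendritic cell and neutrophil markers were also measured: in A20iKO against WT, 5 of 10 cDC1 markers fell, 10 of 14 mature cell markers rose, and 4 of 12 neutrophil markers rose and 2 fell, while none of 13 stromal markers passed by edgeR (none at an unadjusted p under 0.05, and none by DESeq2 or limma-voom). The result for 1 other chemokine receptor is not reported here.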

Additional observations from a re-analysis of the deposited data

How the results depend on the processing

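Over 18 alternatives, 319 values for the 6 receptors in the 3 comparisons could be compared with those reported, and 290 kept their direction and their side of the threshold. The A20iKO against WT calls of Ccr1, Cx3cr1, Cxcr3 and Cxcr4 held in all 18, with log2 fold changes of -2.47 to -1.93, 0.74 to 0.98, -4.07 to -2.95 and 1.41 to 2.15. So did the calls of Ccr1 and Ccr2 between A20iKO and WT+IFNa. The call of Cxcr3 between these groups ended in 11 of 18 (largest limma-voom adjusted p 0.255). Ackr3 in A20iKO against WT had a log2 fold change of -0.04 with an SE of 1.82, far larger than the value itself. Its sign changed in 10 of 17. It became 0.0157 with library sizes alone, 0.0288 with upper-quartile factors, 0.25 with limma-voom and 0.43 with the replicate block. With single libraries left out it ran from -2.19 to 0.83, of which the negative values kept the sign. None of these values passed.

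The count of receptors past the threshold with IFNa against WT went from 0 to 2 by DESeq2, to 2 without the low-count filter, and to between 0 and 1 with single libraries left out. Of all genes, DESeq2 called 700 against 411 with IFNa and 1143 against 723 between A20iKO and WT+IFNa. With single libraries left out, genes called in A20iKO against WT ran from 919 to 1372 against 1416 in all 9, and those between A20iKO and WT+IFNa from 400 to 875. Library sizes alone moved the all-gene median (log2) to -0.15 with IFNa and to 0.12 between A20iKO and WT+IFNa, and the share of higher calls from 77.4% to 60.9% and from 37.5% to 49.4%. Same-numbered libraries of different groups did not deviate together (correlations of -0.37 to 0.24, above 0.1 in 1 of 9 pairs), so the numbers were not taken as pairs. With the replicate block 0, 4 and 3 of the 6 receptors passed (WT+IFNa against WT, A20iKO against WT, A20iKO against WT+IFNa), as without it, and 298, 1075 and 535 of all genes. Counts were fewest for Ackr3, with 0 to 25 per library, and for Cxcr3 in A20iKO, with 9 to 31.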
